A study of Mus musculus with 8 samples.

Results

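The 8 genes described here encode the auxiliary subunits of voltage-gated calcium channels, namely the beta subunits (*Cacnb1*, *Cacnb2*, *Cacnb3* and *Cacnb4*) and the alpha2delta subunits (*Cacna2d1*, *Cacna2d2*, *Cacna2d3* and *Cacna2d4*). They were taken by gene symbol from a table of 24343 genes, and all 8 were found, with 29 of its 34535 transcripts. The data are bulk RNA-seq of the whole brain of 3 C57BL/6NCrl mice, a common inbred laboratory strain, 56–62 days of age. All 3 mice belong to a single condition, and mouse 1 and mouse 2 gave 3 libraries each and mouse 3 gave 2. The labels give neither the sex of these mice nor what distinguishes the libraries of 1 mouse. The study used such data as the average RNA level of the brain to set beside its imaging of single cells. The only comparison between samples is therefore between individual mice.

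A voltage-gated calcium channel is built around a pore-forming alpha1 subunit that crosses the membrane and opens on depolarization. The beta subunit sits on the cytoplasmic side, where it binds a loop of the pore subunit, promotes its delivery to the cell surface and tunes its gating. The alpha2delta subunit lies outside the cell, is held to the membrane and raises the amount of channel at the surface and at presynaptic terminals. Both kinds associate with the high-voltage-activated pores, which trigger transmitter release and couple activity to gene expression in neurons.

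Levels are in FPKM, which corrects the number of sequenced fragments for transcript length and sequencing depth, so that levels of different genes can be set side by side. A gene is the sum of its transcripts, its level is the mean of the 3 mouse means, and each SD is between mice (n = 3). The libraries held 1.31 to 2.02 gigabases on transcripts, and bases came in steps of about 164 to 168 per fragment. By this estimate 407 to 3797 fragments lay behind each value of 7 of the genes and 19.8 to 41.5 behind each value of *Cacna2d4*. The brain label was checked with marker genes. The 3 neuron markers (*Snap25*, *Syt1* and *Rbfox3*) had means of 68.1 to 1056 FPKM. Of the markers of tissues that a dissection could add, 1 of 5 for skeletal muscle, 0 of 4 for photoreceptors, 1 of 5 for the pituitary and 1 of 4 for heart muscle reached 1 FPKM, and none of them exceeded a mean of 3.66 FPKM. In FPKM, both libraries of mouse 3 stood apart in several glial markers, though not in the microglial *P2ry12*. Of the oligodendrocyte genes, *Mbp* was at 1253–1365 FPKM in the libraries of mice 1 and 2 and at 2836 and 3495 FPKM in those of mouse 3. *Mog* was at 34.0–47.3 FPKM against 51.7 and 63.0 FPKM.

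*Cacnb3*, the beta subunit most associated with N-type channels, had the highest level of the 8 genes, 52.5 ± 4.80 FPKM (SD, n = 3 mice). It lies on chromosome 15 (chr15:98632328-98644536, plus strand, GRCm38). Its values were 50.5, 52.0 and 52.1 FPKM in the libraries of mouse 1, 42.3, 50.9 and 51.5 in those of mouse 2, and 59.0 and 56.3 in those of mouse 3. The libraries of mouse 3 were the highest and the first library of mouse 2 the lowest. The gene has 3 annotated transcripts from 2 start sites. The upstream start gave 35.0 ± 4.55 FPKM and the downstream start 17.4 ± 0.245 FPKM, so that 66.8% ± 2.43 of the signal was placed on the upstream start. The 250 bases before each start are shown because these 2 neighbouring promoters differ in base composition. Capitals mark GGGCGG on either strand, the binding motif of Sp1-type factors. It does not occur before the upstream start.
Cacnb3 upstream start (chr15:98632078-98632327, plus strand): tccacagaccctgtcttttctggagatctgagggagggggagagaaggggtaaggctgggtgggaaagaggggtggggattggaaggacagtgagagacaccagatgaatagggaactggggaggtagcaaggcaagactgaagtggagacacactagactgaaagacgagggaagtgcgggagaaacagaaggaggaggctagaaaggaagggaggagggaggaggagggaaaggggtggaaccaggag
Cacnb3 downstream start (chr15:98634517-98634766, plus strand): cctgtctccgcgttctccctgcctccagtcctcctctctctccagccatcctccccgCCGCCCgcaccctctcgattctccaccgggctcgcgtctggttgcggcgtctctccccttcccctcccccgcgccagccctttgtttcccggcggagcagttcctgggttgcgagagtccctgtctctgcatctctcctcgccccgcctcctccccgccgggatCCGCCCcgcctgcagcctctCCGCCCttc
The upstream sequence has 2 CG dinucleotides and the downstream sequence 23, against a median of 6 and quartiles of 2 and 16 over 32851 mouse promoters of the same length (RefSeq, GRCm38.p6). GGGCGG or its complement occurs 0 times in the former and 3 times in the latter, and 32.7% of all promoters hold it. Within the coding sequence, an 81-base exon is absent from 1 of the 3 transcripts, and the other 2 held 98.6% ± 0.421 of the gene's FPKM. The exon is shown in capitals, between 20 bases of its neighbouring exons on either side, because nearly all *Cacnb3* signal was placed on transcripts that hold it.
Cacnb3 81-base exon (chr15:98641177-98641257, plus strand): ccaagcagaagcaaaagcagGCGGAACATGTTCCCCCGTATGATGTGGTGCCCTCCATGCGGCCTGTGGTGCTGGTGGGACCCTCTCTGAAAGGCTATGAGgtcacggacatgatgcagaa

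*Cacnb4* is the beta subunit whose loss causes seizures and ataxia in lethargic mice. It had the second highest level, 31.5 ± 4.10 FPKM (chr2:52428320-52676609, minus strand). Values were 34.4, 33.4 and 32.7 FPKM in mouse 1, 36.1, 32.6 and 34.0 in mouse 2, and 24.9 and 28.7 in mouse 3. Every library of mice 1 and 2 was above both libraries of mouse 3. Of its 4 annotated starts, 2 carried most of the signal, with 13.1 ± 1.18 FPKM at position 52676143 and 11.8 ± 0.853 FPKM at position 52558611. The former ranged from 9.33 to 16.8 FPKM between libraries, and its spread within a mouse was 27.4% of its mean. The start at 52676609 gave 4.23 ± 0.672 FPKM. The value of the start at 52675859 ranged from 0.000815 to 9.34 FPKM between libraries, with 2.57, 9.34 and 0.324 FPKM in the 3 libraries of mouse 1 alone. Its spread within a mouse was 159.5% of its mean against 6.01% for the summed gene. Single-transcript values of *Cacnb4* are therefore given with less weight than the sum.

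*Cacnb1* is the beta subunit first described in skeletal muscle, and its brain form differs in an internal exon. Its level was 22.6 ± 4.43 FPKM (chr11:98001508-98022627, minus strand). Values were 26.2, 24.7 and 28.0 FPKM in mouse 1, 24.7, 22.1 and 24.95 in mouse 2, and 19.7 and 15.7 in mouse 3. The 2 libraries of mouse 3 were below the other 6. The transcripts use either a 20-base or a 155-base coding exon at the same place. Neither length is a multiple of 3, and both are shown in capitals with 20 flanking bases because every *Cacnb1* transcript holds 1 or the other.
Cacnb1 20-base exon (chr11:98010627-98010646, minus strand): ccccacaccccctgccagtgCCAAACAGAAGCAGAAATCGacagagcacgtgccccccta
Cacnb1 155-base exon (chr11:98011343-98011497, minus strand): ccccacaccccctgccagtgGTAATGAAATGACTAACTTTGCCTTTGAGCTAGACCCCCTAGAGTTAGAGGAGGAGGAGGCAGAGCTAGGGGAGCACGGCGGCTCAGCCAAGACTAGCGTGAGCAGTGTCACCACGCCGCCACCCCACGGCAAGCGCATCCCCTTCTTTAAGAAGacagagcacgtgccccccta
Transcripts with the 20-base exon held 96.8% ± 0.676 of the *Cacnb1* FPKM and those with the 155-base exon 3.18% ± 0.676. The latter share ranged from 0.834% to 6.27% over the 8 libraries. The library with the lowest share was the first of mouse 2. *Acta1*, the actin of skeletal muscle, was at 12.6 FPKM there, against 1.66 to 3.15 FPKM in the other 7. Other skeletal muscle markers did not single out this library. *Myh4* was at 0.0451 FPKM there (0.0243–0.0918 over the 8 libraries), *Mylpf* at 0.517 (0.290–1.82) and *Tnnt3* at 0.233 (0–0.457), with *Ckm* at 0. A link of muscle genes to the exon share was not tested.

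*Cacnb2*, the main beta subunit of the heart, was the lowest of the 4 at 11.3 ± 1.78 FPKM (chr2:14604306-14987908, plus strand). Its libraries read 11.05, 12.8 and 12.6 FPKM in mouse 1, 12.9, 12.2 and 12.3 in mouse 2, and 9.98 and 8.51 in mouse 3. Again the libraries of mouse 3 lay below the other 6. The signal came from 2 starts that lie far apart. The most downstream start, at position 14873656, gave 7.04 ± 0.212 FPKM and the most upstream start, at 14604306, gave 4.24 ± 1.69 FPKM. A start between them, at 14824092, had at most 0.00587 FPKM in any library. The 250 bases before the upstream start are shown because the level of this start, and not that of the downstream start, was lowest in both libraries of mouse 3. Capitals mark GGGCGG on either strand.
Cacnb2 most upstream start (chr2:14604056-14604305, plus strand): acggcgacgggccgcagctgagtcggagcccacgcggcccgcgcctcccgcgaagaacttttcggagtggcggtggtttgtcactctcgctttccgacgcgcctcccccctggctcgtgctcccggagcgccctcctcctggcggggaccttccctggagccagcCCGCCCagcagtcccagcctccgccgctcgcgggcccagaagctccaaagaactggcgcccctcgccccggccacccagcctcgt
This sequence holds 30 CG dinucleotides and 1 match to the motif. Of the 12 starts of the 8 genes for which RefSeq gave a sequence (7 genes, *Cacna2d4* not among them), 8 had 23 to 37 CG dinucleotides and 4 had 1 to 4. The motif GGGCGG was found in 7 of 12 and TATAAA in 0 of 12, compared with 32.7% and 12.4% of all promoters.

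*Cacna2d1*, the main binding site of the drug gabapentin, was the highest alpha2delta gene at 25.4 ± 5.64 FPKM (chr5:15934691-16374511, plus strand). Its values were 27.7, 28.6 and 28.6 FPKM in mouse 1, 29.7, 28.9 and 28.6 in mouse 2, and 20.6 and 17.2 in mouse 3. The 6 libraries of mice 1 and 2 lay within 27.7–29.7 FPKM, above both of mouse 3. Its 5 annotated transcripts share start and end and differ in 3 coding segments, each a multiple of 3 bases. These are shown in capitals, with 20 bases of the neighbouring exons on either side, because 1 combination of them held nearly all of the signal.
Cacna2d1 57-base exon (chr5:16322539-16322595, plus strand): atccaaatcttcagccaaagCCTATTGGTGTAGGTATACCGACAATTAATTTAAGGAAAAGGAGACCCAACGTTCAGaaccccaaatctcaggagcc
Cacna2d1 15-base extension at the start of an exon (chr5:16326312-16326326, plus strand): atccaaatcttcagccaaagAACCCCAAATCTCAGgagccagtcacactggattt
Cacna2d1 21-base exon (chr5:16341990-16342010, plus strand): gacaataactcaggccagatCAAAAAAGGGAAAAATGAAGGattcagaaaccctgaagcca
The transcript that lacks the 57-base exon and holds the other 2 segments made up 96.4% ± 0.960 of *Cacna2d1* FPKM. The 15-base extension was in transcripts with 98.0% ± 1.19 of the FPKM and the 21-base exon in those with 98.4% ± 1.36. The 57-base exon is in a single transcript, which did not exceed 0.219 FPKM in any library.

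*Cacna2d3*, an alpha2delta subunit insensitive to gabapentin, had nearly the same level, 24.3 ± 5.35 FPKM (chr14:28904943-29721864, minus strand). Values were 26.6, 26.1 and 27.0 FPKM in mouse 1, 27.0, 30.4 and 27.1 in mouse 2, and 18.7 and 17.7 in mouse 3. The ratio of *Cacna2d1* to *Cacna2d3* stayed between 0.954 and 1.10 in all 8 libraries, those of mouse 3 included. *Cacna2d3* has 1 annotated transcript, so its level does not depend on how signal was divided between transcripts.

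*Cacna2d2*, the gene mutated in the ataxic ducky mouse and enriched in Purkinje cells, was at 12.5 ± 2.33 FPKM (chr9:107399880-107529343, plus strand). Its libraries read 14.8, 14.2 and 13.9 FPKM in mouse 1, 13.3, 12.7 and 14.1 in mouse 2, and 10.99 and 8.76 in mouse 3, the last 2 again the lowest. In contrast to *Cacna2d1*, each of its 5 transcripts had a mean share above 5% of the FPKM, with 48.3% ± 6.45 on the leading transcript. In single libraries, 2 of the minor transcripts fell to shares of 0.793% and 1.03%. Like *Cacna2d1*, the gene has an optional coding exon of 21 bases, shown in capitals for that comparison.
Cacna2d2 21-base exon (chr9:107519179-107519199, plus strand): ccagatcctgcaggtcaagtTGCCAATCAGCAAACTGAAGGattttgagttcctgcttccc
The 21-base exons of the 2 genes are identical at 12 of 21 positions (57.1%). Transcripts with the *Cacna2d2* exon held 23.2% ± 1.41 of its FPKM, ranging from 9.43% to 35.2% over libraries, whereas the *Cacna2d1* exon was at 95.6% or more in every library. The other coding differences of *Cacna2d2* are alternative exon beginnings of 3 and 6 bases. The latter was placed on 35.1% ± 3.71 of the FPKM. No share is given for the former, because the annotation and the deposited length of the leading transcript differ on whether that transcript holds it. These transcripts differ by few bases. The within-mouse spread of *Cacna2d2* transcripts averaging 1 FPKM or more reached 73.0% of the mean, against 8.22% for the gene. It was 76.1% for the lowest transcript, with a mean of 0.852 FPKM.

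*Cacna2d4*, known from photoreceptors, was the exception at 0.467 ± 0.0203 FPKM (chr6:119236526-119352407). Values were 0.574, 0.421 and 0.447 FPKM in mouse 1, 0.344, 0.548 and 0.541 in mouse 2, and 0.368 and 0.520 in mouse 3. The mice overlapped. The spread between libraries of a mouse was 22.0% of the mean, beside a counting error estimated at 15.5% to 22.5% per library. The photoreceptor genes *Rcvrn*, *Pde6b* and *Gnat1* had means of at most 0.0480 FPKM, and *Sag* had a mean of 0.905 FPKM.

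**Figure D1:**
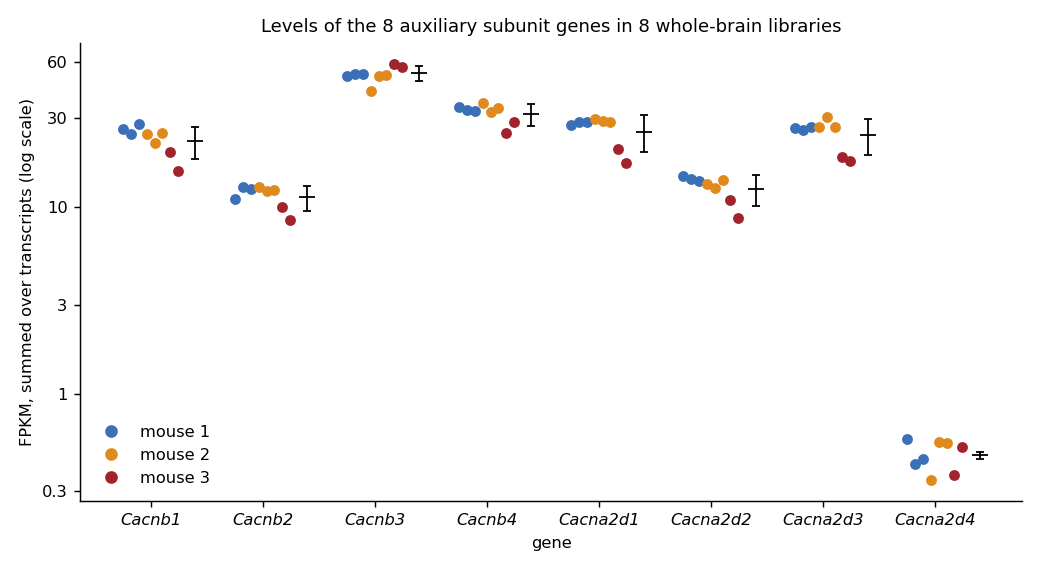
FPKM summed over the transcripts of each gene (log scale) in the 8 libraries, coloured by mouse. Black bars are the mean of the 3 mouse means ± SD. The 6 genes other than Cacnb3 and Cacna2d4 have both mouse 3 points below the other 6, and Cacna2d4 lies near 0.467 FPKM.

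Ordered by level, the genes ran *Cacnb3*, *Cacnb4*, *Cacna2d1*, *Cacna2d3*, *Cacnb1*, *Cacna2d2*, *Cacnb2* and *Cacna2d4*. Only 3 steps of this order separated the ranges of the mouse means. These were *Cacnb3* over *Cacnb4* (1.66 times), *Cacnb1* over *Cacna2d2* (1.81 times) and *Cacnb2* over *Cacna2d4* (24.1 times). *Cacna2d1* was above *Cacna2d3*, and *Cacna2d3* above *Cacnb1*, in 6 of 8 libraries and in the means of all 3 mice. The ranges of their mouse means overlapped and the spread of differences within libraries was not computed, so these neighbours are not ranked apart. The remaining neighbours held their order in 8 of 8 libraries although the ranges of the mice overlapped. The order depends on summing transcripts. When each gene was represented by its highest transcript, *Cacnb4* moved from the second to the fifth place at 13.1 FPKM.

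Within the beta family, *Cacnb3* held 44.7% ± 6.16 of the summed FPKM, *Cacnb4* 26.7% ± 2.40, *Cacnb1* 19.1% ± 2.86 and *Cacnb2* 9.54% ± 1.14. Within the alpha2delta family, *Cacna2d1* held 40.5% ± 0.558, *Cacna2d3* 38.7% ± 0.776, *Cacna2d2* between 17.5% and 21.7% by library, and *Cacna2d4* 0.771% ± 0.156. The alpha2delta shares thus varied little between the mice even though the levels differed. The beta shares did not. *Cacnb3* held 36.5–43.2% of the beta signal in the libraries of mice 1 and 2, but 51.9% and 51.6% in those of mouse 3. FPKM is per length. When the signal was not divided by transcript length, *Cacnb4*, whose transcripts are the longest, held the largest part of the beta fragments (49.7% against 28.1% for *Cacnb3*), and *Cacna2d1* held 53.8% of the alpha2delta fragments.

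The 4 beta genes summed to 118 ± 6.07 FPKM and the 4 alpha2delta genes to 62.7 ± 13.2 FPKM. The 7 genes of the high-voltage-activated pores (*Cacna1a*, *Cacna1b*, *Cacna1c*, *Cacna1d*, *Cacna1e*, *Cacna1f* and *Cacna1s*) summed to 46.9 FPKM (29.4 to 52.6 by library). The ratio of beta to pore transcripts was 2.25 to 2.42 in the 6 libraries of mice 1 and 2 and 2.54 and 3.71 in mouse 3. For alpha2delta, the ratio to the pores was 1.32–1.42 in mice 1 and 2 and 1.13 and 1.51 in mouse 3, on either side of the other 6. The ratio of beta to alpha2delta was 1.62–1.79 in mice 1 and 2 and 2.24 and 2.47 in mouse 3. These are ratios of transcript levels and not of subunits in channels.

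**Figure D2:**
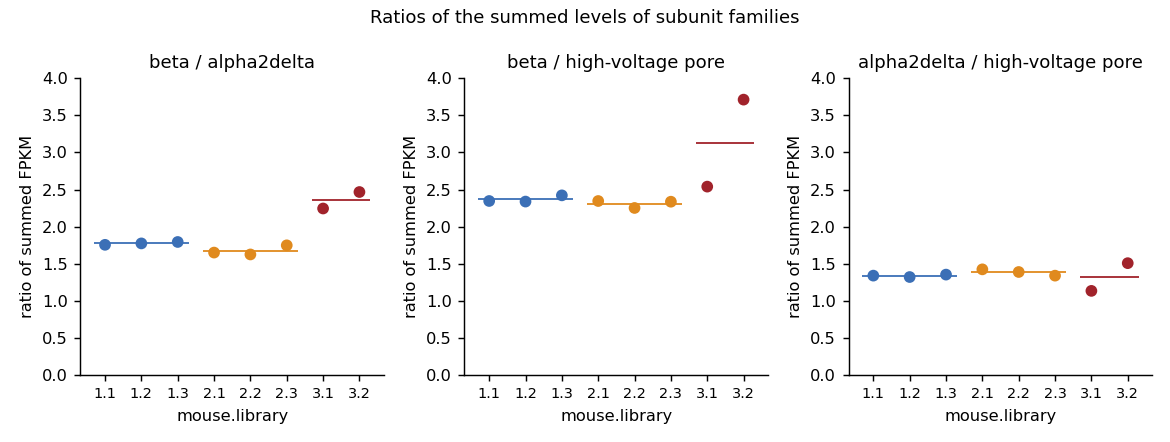
Ratio of the summed FPKM of subunit families in each library (points, coloured by mouse), with the mean of each mouse as a line. The beta to alpha2delta ratio of both mouse 3 libraries (2.24 and 2.47) lies above the 1.62–1.79 of the other 6, and the second library of mouse 3 stands alone at 3.71 in the beta to pore ratio.

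Most auxiliary subunit genes differed between the 3 mice, and in each case mouse 3 was the lowest. Genes averaging 1 FPKM or more were tested on log2(FPKM + 1) with the moderated F-test of limma, which took in 7 of the 8 members and left out *Cacna2d4*. Of the 7, 6 were past an adjusted p of 0.05. All 6 were lowest in mouse 3. Each adjusted p is for any difference between the mice. The mouse 3 differences given beside it are estimates without a p-value of their own. Over all 13001 genes tested, 25.5% were past the threshold, 11.3% with mouse 3 lowest (1464 genes) and 14.1% with mouse 3 highest (1829). In TPM, which gives all libraries equal totals and moved the median difference of all genes from 0.02 to −0.26, these were 4757 and 700 genes, and the same number of members, 6, was past the threshold. Libraries of a mouse are not separate animals, so the p-values describe these 3 mice and not a population. In bulk tissue, fewer cells of a type and less RNA per cell cannot be told apart.

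Among the alpha2delta genes, *Cacna2d1* differed between mouse 3 and the mean of mice 1 and 2 by −0.58 ± 0.08 (difference on the log2(FPKM + 1) scale ± SE, adjusted p = 0.00860, limma, lower than 6 of 6 libraries of the other mice in both libraries of mouse 3). *Cacna2d3* differed by −0.56 ± 0.08 (limma, adjusted p = 0.00785) and *Cacna2d2* by −0.45 ± 0.09 (limma, adjusted p = 0.0225). The 3 tested alpha2delta genes thus moved together. Among the beta genes, *Cacnb1* differed by −0.49 ± 0.10 (limma, adjusted p = 0.0236), *Cacnb2* by −0.38 ± 0.09 (limma, adjusted p = 0.0354) and *Cacnb4* by −0.33 ± 0.08 (limma, adjusted p = 0.0425). *Cacnb3* was not past the threshold, with a difference of 0.21 ± 0.09 (limma, adjusted p = 0.179), and its direction turned to −0.086 with TPM. Relative to the median of all genes, the *Cacnb3* difference was 0.17 with TPM and 0.19 with FPKM, and that of *Cacna2d1* −0.63 and −0.60. Differences between mouse 2 and mouse 1 were smaller, from −0.13 to 0.08, and when mouse 3 was left out 0 of 7 genes were past the threshold (limma), and 0 had an unadjusted p under 0.05. In that comparison, added after seeing the data, 3 of 12934 genes were, and 566 had an unadjusted p under 0.05.

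Without any test, both libraries of mouse 3 lay below the other 6 for 6 of the 8 genes, as they did for 21.7% of all tested genes. They lay above the other 6 for *Cacnb3*, as they did for 26.5%. The calls depended on the second library of mouse 3. Without it, 0 of 7 members (5 at an unadjusted p under 0.05) and 126 of 12998 genes were past the threshold by limma, while the differences of *Cacna2d1* and *Cacna2d3* were −0.46 and −0.52 (limma, adjusted p = 0.0613 and 0.0685). Leaving out a library of mouse 1 left 2 or 3 members past the threshold, always with *Cacna2d1* and *Cacna2d3* among them. Over all genes, 12.9% to 14.7% were past the threshold in these fits. In FPKM, marker genes of other cells moved with mouse 3. The FPKM of all genes summed to 384885 and 409889 in its libraries and to 295541 to 345572 in the others. The markers were not examined in TPM, so which of them stood apart or overlapped is stated for FPKM only. *Mbp* and *Mog* were higher there as given above, the astrocyte markers *Gfap*, *Aqp4* and *Aldh1l1* summed to 185–211 FPKM against 113.9–122.9 FPKM, each of the 3 higher, and the endothelial markers *Cldn5*, *Pecam1* and *Flt1* to 34.0–36.5 against 20.4–28.2 FPKM. The microglia markers *Cx3cr1*, *P2ry12* and *Tmem119* summed to 33.5–36.7 against 28.3–32.04 FPKM. *Flt1* and *P2ry12* overlapped between the mice. The neuron markers were unequally lower in mouse 3. *Syt1* was at 180 and 147 FPKM against 267–276 FPKM in mice 1 and 2, *Rbfox3* at 57.1 and 49.9 against 71.3–79.1 FPKM, and *Snap25* at 915 and 1084 against 1009–1119 FPKM, the second value inside that range. The markers of cerebellar cells went in different directions. *Calb1* was lower, at 50.3 and 71.1 against 76.0–83.0 FPKM, and *Pcp2* higher, at 106 and 179 against 69.5–96.4 FPKM, while *Gabra6* and *Cbln3* overlapped between the mice. Their part in the differences of the subunit genes was not tested.

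Transcript length moved with the difference as well. Across 20 bins of about 650 genes each by length, the median difference of mouse 3 fell from 0.68 in the shortest genes to −0.29 in the longest. For *Cacnb4*, with a mean transcript length of 7897 bases, the difference of −0.33 was close to the −0.29 of its bin, and it was −0.09 once each library's trend with length had been removed (limma, adjusted p = 0.801). *Cacna2d1*, of 7435 bases, was at −0.58 against −0.22 in its bin and *Cacna2d2* at −0.45 against −0.16. *Cacna2d3* at −0.56 against −0.08 and *Cacnb1* at −0.49 against −0.01 lay farthest from the genes of their length. *Cacnb2* was at −0.38 against −0.08 and *Cacnb3* at 0.21 against 0.01. With the trend removed, 4 of 7 members were past the threshold, the 3 alpha2delta genes and *Cacnb1*. *Cacnb2* was not, at −0.30 (limma, adjusted p = 0.0570) against −0.38 before. Over all 13001 genes, 2633 (20.3%) were past the threshold in this fit, 1210 of them lowest in mouse 3.

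**Figure D3:**
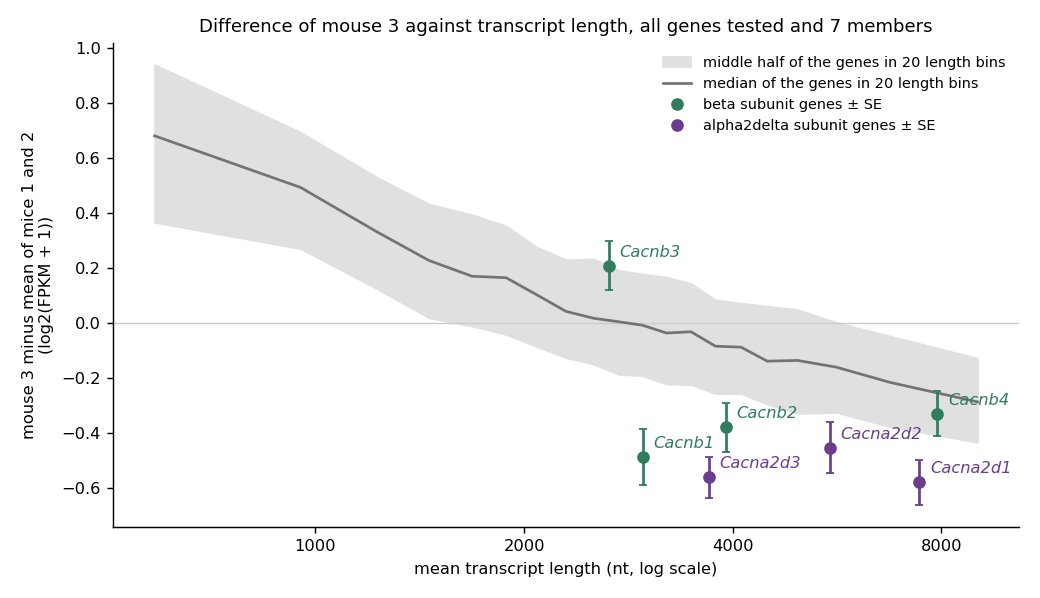
Difference of mouse 3 from the mean of mice 1 and 2, in log2(FPKM + 1), against mean transcript length (log scale). The line and band are the median and quartiles of 13001 genes in 20 length bins, and points are the 7 tested genes ± SE. Cacnb4 lies close to the line, whereas Cacnb1 (−0.49) and Cacna2d3 (−0.56) lie farthest below it.

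At the level of transcripts, the lower values of mouse 3 were not spread evenly. For *Cacnb2*, the most upstream start gave 4.42, 5.85 and 4.30 FPKM in mouse 1, 3.96, 5.06 and 7.57 in mouse 2, and 2.76 and 1.91 in mouse 3. The most downstream start gave 6.63, 6.95 and 8.29 FPKM in mouse 1, 8.90, 7.13 and 4.78 in mouse 2, and 7.21 and 6.61 in mouse 3. Only the former was lowest in both libraries of mouse 3. Its share of the *Cacnb2* signal was 30.8–61.3% in mice 1 and 2 and 27.6% and 22.4% in mouse 3, and when only the highest transcript of *Cacnb2* was tested, the difference was −0.02 (limma, adjusted p = 0.916). Over 1791 genes with more than 1 start, the share of the leading start in mouse 3 lay apart from the other 6 libraries in 10.7%. *Cacnb2* was the only 1 of the 4 beta genes for which it did.

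For *Cacnb1*, 2 transcripts that share the 20-base exon and the start but differ at the 3′ end moved differently. The leading transcript, of 3389 bases, gave 21.2, 19.8 and 21.3 FPKM in mouse 1, 17.5, 17.6 and 17.1 in mouse 2, and 12.8 and 8.96 in mouse 3. The short transcript, of 1738 bases, gave 4.55, 3.86 and 6.37 FPKM in mouse 1, 7.01, 3.36 and 6.31 in mouse 2, and 6.02 and 6.23 in mouse 3. The long form was lowest in mouse 3 and the short form was within the range of the other mice. For *Cacnb3*, the upstream start gave 29.6–38.0 FPKM in mice 1 and 2 and 38.7 and 41.3 FPKM in mouse 3, while the downstream start (12.5–20.6 FPKM against 20.4 and 15.0) overlapped. When each gene was represented by its highest transcript, the leading *Cacnb1* transcript was past the threshold (limma F-test, adjusted p = 0.0167). Its mouse 3 difference was −0.77 ± 0.12. The transcript of the upstream *Cacnb3* start was not past the threshold (0.29 ± 0.10, limma, adjusted p = 0.101). The other transcripts and the differences between transcripts of a gene were not tested. Each transcript value rests on how the authors' program divided fragments between overlapping transcripts.

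**Figure D4:**
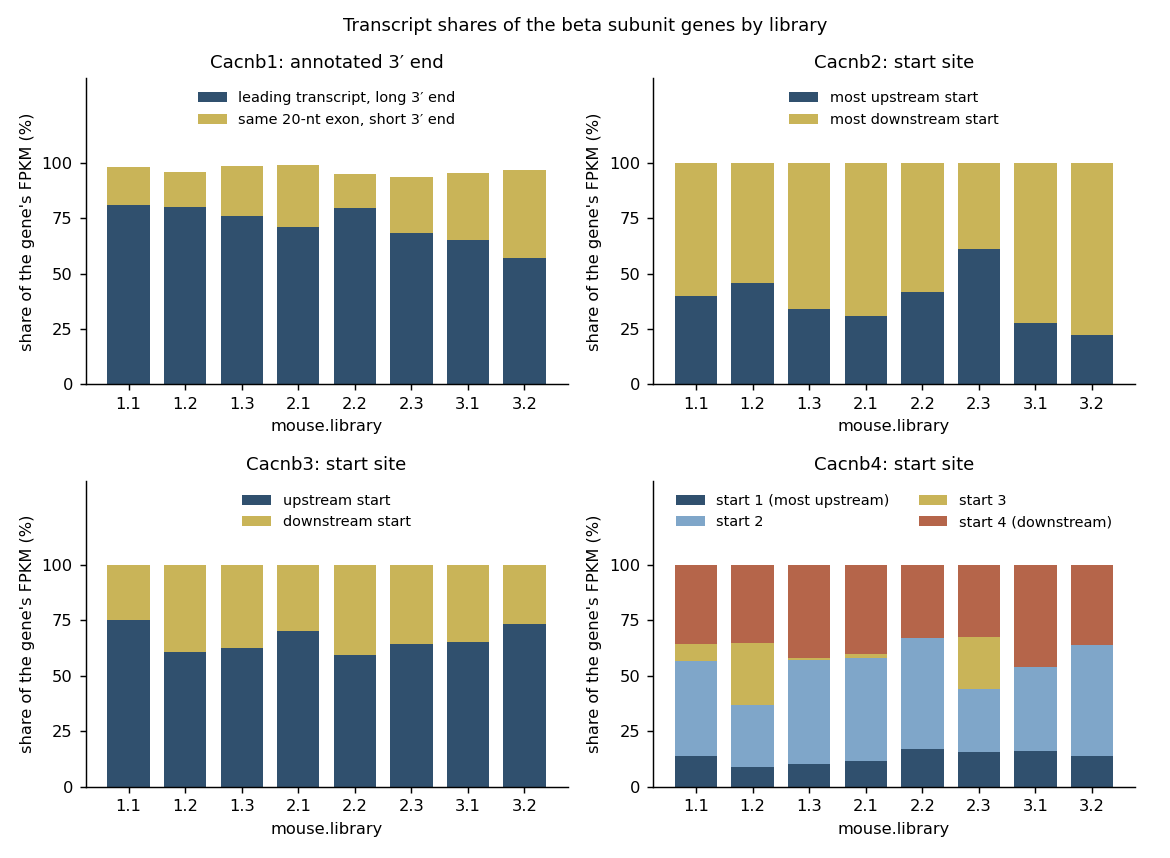
Share of each beta gene's FPKM (%) on transcripts with a given 3′ end (Cacnb1) or start site (Cacnb2, Cacnb3 and Cacnb4) in each library, labelled mouse.library. Minor transcripts make up the remainder for Cacnb1. The most upstream Cacnb2 start is lowest in libraries 3.1 and 3.2 (27.6% and 22.4%), and start 3 of Cacnb4 varies between 0.00284% and 28.0%.

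The other calcium channel genes were examined as lists, beside the 25.5% of all 13001 tested genes that were past the threshold. Of the 7 high-voltage pore genes, 5 were tested and *Cacna1a*, the pore of P/Q-type channels and the highest of them at 18.5 ± 3.04 FPKM, was past the threshold (−0.42 ± 0.10, limma, adjusted p = 0.0445). All 5 had differences below 0, with a list median of −0.45, beside −0.56 for the alpha2delta list, −0.35 for the beta list and 0.02 over all genes. The call for *Cacna1a* was lost with a pseudocount of 0.1, without the filter, with the highest transcript and with the replicate block (limma, adjusted p = 0.0572, 0.0669, 0.123 and 0.0965), with differences of −0.45 to −0.41. It held in 2 of 8 fits that left out a library, those without the first library of mouse 2 or of mouse 3 (adjusted p of 0.00928 to 0.245 over the 8, limma). Without the second library of mouse 3, 0 of the 31 tested genes of all lists were past the threshold by limma, with 11 at an unadjusted p under 0.05. With the length trend removed it was −0.18 (limma, adjusted p = 0.163), 0 of 5 high-voltage pore genes were past the threshold by limma, 0 also at an unadjusted p under 0.05, and the list medians were −0.18 for these pores, −0.35 for alpha2delta and −0.19 for beta. *Cacna1f* and *Cacna1s*, known from retina and skeletal muscle, had means of 0.0212 and 0.165 FPKM and were not tested. Of the 3 low-voltage pore genes, which do not require these subunits, 0 were past the threshold by limma, with 1 of the 3 at an unadjusted p under 0.05 and a list median of −0.38. With TPM, 5 of 5 high-voltage and 3 of 3 low-voltage pore genes were past it, all lowest in mouse 3. Over all genes, 42.3% were past it with TPM, 4757 of these 5493 genes with mouse 3 lowest. Of 8 gamma genes, 6 were tested and 2 were past the threshold, both lowest in mouse 3. These were *Cacng2* (−0.53 ± 0.09, limma, adjusted p = 0.0144) and *Cacng3* (−0.62 ± 0.12, limma, adjusted p = 0.0185), which encode auxiliary subunits of AMPA-type glutamate receptors.

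Among 8 genes of proteins that bind beta subunits, 5 were tested and 1 was past the threshold. This was *Rims1*, a presynaptic scaffold, which was highest in mouse 3 with 82.9 and 83.5 FPKM against 52.5–66.7 FPKM (0.45 ± 0.09, limma, adjusted p = 0.0172). With TPM its difference was 0.16 (limma, adjusted p = 0.325). *Cbarp*, listed under the older symbol *Dos*, was at 47.9 ± 5.16 FPKM and not past it. Of 6 genes of proteins that bind or resemble alpha2delta subunits, 5 were tested and *Thbs3*, a thrombospondin at 1.77 ± 0.398 FPKM, was past it (−0.37 ± 0.08, limma, adjusted p = 0.0269). With any library of mouse 1 or the second library of mouse 2 left out, 0 genes of this list were past the threshold by limma. *Lrp1*, an endocytic receptor, read 29.2 and 14.1 FPKM in the 2 libraries of mouse 3, on either side of the 18.5–21.8 FPKM of the others.

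**Figure D5:**
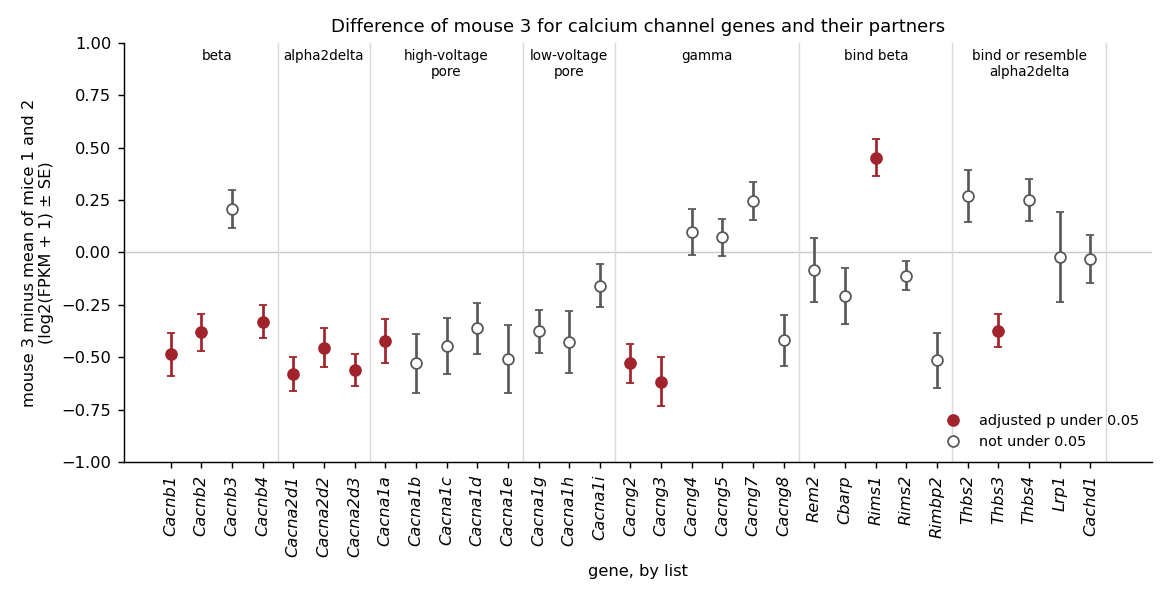
Difference of mouse 3 from the mean of mice 1 and 2 in log2(FPKM + 1) ± SE for the 31 tested genes of the calcium channel lists. Filled points are past an adjusted p of 0.05 by limma. In all, 6 of the 7 tested auxiliary subunit genes are filled and below 0, and Rims1 is the only filled point above 0, at 0.45, though not past the threshold with TPM (0.16).

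The genes whose pattern over the 8 libraries was most like that of the highest member of each family were found by Pearson's r of log2(FPKM + 1) among 13000 other genes, given as a description. For *Cacna2d1* these were *Gcc2* (r = 0.997), *Cep170* (r = 0.996) and *Bod1l* (r = 0.996), and 1369 genes had an r of at least 0.9. For *Cacnb3* they were *Pitpnm1* (r = 0.995), *Atxn7l3* (r = 0.991) and *Rnf187* (r = 0.991), with 634 genes at 0.9 or above. The points share libraries and their depth, and 2 of the 8 come from mouse 3. None of the 3 genes nearest to each of the 7 tested members was a member or on a list. Between members, r was highest for *Cacnb1* and *Cacna2d2* (0.965) and for *Cacnb2* and *Cacna2d1* (0.963). In FPKM, *Cacnb3* was negatively related to each of the other 6, from −0.53 to −0.84. With TPM the mouse 3 difference of *Cacnb3* turned to −0.086, and r was not computed on that scale.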

How the data were processed

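Bulk RNA-seq of whole brains was available as 8 libraries of 3 mice. As the study describes, purification used an RNAqueous Micro kit, RNA integrity had to exceed 8, and Kapa mRNA HyperPrep libraries were run on a NextSeq500. The authors deposited FPKM and the bounds of its confidence interval for each RefSeq transcript, from TopHat and Cufflinks on mm10 as the submitters' processing notes name them. Versions and the strand setting are not given in the sources used here, so reads of antisense partners cannot be told apart. The deposited coverage, a signal of read depth per base, was used only for depth. FPKM are not counts, so counting intervals were not computed. The counting error given for *Cacna2d4* is the inverse square root of its estimated number of fragments.

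FPKM were summed over the transcripts of a gene. Mice were compared with limma 3.58.1 (R 4.3.3), a moderated F-test of log2(FPKM + 1) on the 13001 genes averaging 1 FPKM or more, adjusted by Benjamini-Hochberg over all of them, and a threshold of 0.05. Tests were checked on simulated data. Mouse 3 was set against the mean of mice 1 and 2 because mouse 3 stood apart, a contrast chosen after seeing the data. This contrast gave the difference and its SE, whereas each adjusted p is that of the F-test. A fold change on this scale understates that of low genes. The members, gene lists and tests were chosen with earlier results of these data known. Text names all 8 members, the most similar genes of the highest member of each family by Pearson's r, and those genes of the lists that a result turned on. Of the marker genes, 2 are not reported here.

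Exons were read from GENCODE M21 (GRCm38), matched to 29 of 29 transcripts, and assigned to the deposited transcripts by annotation and length. Sequences before start sites were from RefSeq (GRCm38.p6). Alternatives were a pseudocount of 0.1, no filter, TPM, removal of the length trend, the highest transcript, library number as a block, other means, values not per length, leaving out each library and, added after seeing the data, leaving out mouse 3. The number of a library is shared between the mice in the labels. Deviations of same-numbered libraries correlated at 0.00 to 0.11, and those of differently numbered libraries at −0.135 to 0.0645. The former were all positive but small, so that the numbers were not taken to pair samples. A shared effect of the number is not excluded by this. Python 3.11.15 with pandas 2.3.3 and matplotlib 3.10.9 was used for the rest.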

Additional observations from a re-analysis of the deposited data

Results flagged for a closer look

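Of 30 measures compared over the 8 libraries (levels, totals, ratios and shares of the subunit genes), 2 had a single library far from the rest, both through the second library of mouse 3. The summed level of the 7 high-voltage pore genes was 29.4 FPKM there, with the next lowest library at 44.8 FPKM, a gap of 0.664 of the whole range. The ratio of beta to high-voltage pore transcripts was 3.71 there, with the next highest library at 2.54, a gap of 0.803 of the range. These 2 share the pore total and are not separate signs. Chance marks about 1 in 20 such groups of independent values. Libraries of 1 mouse are not independent and the measures overlap, so this rate is only a rough guide here. The beta and alpha2delta totals of the same library, 109 and 44.2 FPKM, were not marked. Without that library, 0 of 7 subunit genes were past the threshold for a difference between the mice by limma, with 5 at an unadjusted p under 0.05.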

How the results depend on the processing

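The count of members past the threshold, 6 of 7, was 5 with a pseudocount of 0.1, 6 without a filter and with TPM, and 4 with the length trend removed or with the highest transcript. It ranged from 0 to 6 when single libraries were left out, and was 0 without mouse 3. With library number as a replicate block, although the numbers were not taken to pair the samples, it was 4, with *Cacnb2* and *Cacnb4* at adjusted p = 0.0836 and 0.0847 (limma) and differences of −0.37 and −0.34, against −0.38 and −0.33 without it. Over all genes, the 3310 calls (1464 lowest and 1829 highest in mouse 3) became 5493 with TPM (4757 and 700), 2171 with the highest transcript and 126 to 3873 when single libraries were left out. The split was 951 lowest and 2026 highest with the block. As a share of all genes tested, the calls were 25.5% in the main fit. This share was 22.4% with the pseudocount of 0.1, 14% without a filter and 42.3% with TPM. It was 20.3% with the length trend removed, 16.9% with the highest transcript and 23% with the block. *Cacnb3* reversed to −0.086 with TPM (limma, adjusted p = 0.488), against 0.101 to 0.488 over its alternatives, which was never past the threshold. *Cacnb4* was at adjusted p = 0.0540 with the pseudocount of 0.1 and 0.812 with its highest transcript (limma).

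In TPM the levels were 66.9 for *Cacnb1*, 33.3 for *Cacnb2*, 151 for *Cacnb3*, 92.6 for *Cacnb4*, 75.3 for *Cacna2d1*, 36.9 for *Cacna2d2*, 71.8 for *Cacna2d3* and 1.36 for *Cacna2d4*, in the same order as in FPKM. With the highest transcript they were 16.3, 7.04, 35.0 and 13.1 FPKM for *Cacnb1* to *Cacnb4* and 6.07 FPKM for *Cacna2d2*. Leaving out single libraries moved the level of *Cacna2d4* to between 0.442 and 0.493 FPKM. Not per length, shares within the families were 13.3% for *Cacnb1*, 28.1% for *Cacnb3*, 49.7% for *Cacnb4*, 53.8% for *Cacna2d1* and 25.6% for *Cacna2d3*. Where not stated, the cause of a change was not tested. With 3 mice and no counts, precision rests on the spread between libraries, and values of *Cacna2d4* are limited by few fragments.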
